A study of Rattus norvegicus with 9 samples.

Results

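The genes described here are those of the integrated stress response: Atf4 and 9 of its known partners and stress targets, namely Chac1, Trib3, Asns, Ddit3, Ddit4, Atf3, Atf5, Psat1 and Ppp1r15a. They were followed in the liver of male Wistar rats with and without total-body irradiation (TBI). The 10 genes were chosen from earlier results of these same arrays, in which the signals of Atf4 and Chac1 after TBI were already known. Their values below are therefore a description and no independent support for a response. A probe belonged to a gene when RefSeq mapped the probe's accession to the gene's symbol or to one of its synonyms. In this way 8 of the 10 genes were matched to 9 of the 41012 probes of the array, and 7 of them passed the filter on dim probes. No probe was matched to Trib3, a pseudokinase, or to Atf5, a transcription factor related to Atf4.

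Liver RNA of 9 rats was hybridized to 1-colour Agilent arrays, 1 array per rat, in 3 groups of 3. The control rats were neither irradiated nor given the drug, the TBI rats received 6.5 Gy from a 60Co source, and the HSC + TBI rats received Hong Shan Capsule (HSC), a Chinese herbal preparation, by mouth for 3 days before the same exposure. The livers of all 3 groups were collected at 24 h. The HSC dose is 30 mg/kg/day in the sample descriptions and 10 g/kg/day in the series design and the study's methods, and it entered no calculation. No group received HSC without irradiation, and no genotype or age is given in the labels.

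The integrated stress response is the pathway by which a cell slows protein synthesis under stress. Kinases that sense amino acid shortage, unfolded protein in the endoplasmic reticulum, double-stranded RNA or heme shortage phosphorylate the translation factor eIF2, and most translation falls. The mRNA of Atf4 is then translated more, and the ATF4 protein switches on genes of amino acid supply, redox balance and, under lasting stress, cell death. Arrays measure mRNA, so neither eIF2 phosphorylation nor ATF4 protein was measured here.

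ATF4 acts through short promoter elements, so the promoters of the 3 genes that were higher after TBI are shown first. Each window runs from 250 bases before to 50 bases after the RefSeq gene start on assembly GRCr8, is written 5′ to 3′ on the gene's strand, and has in capitals the letters that matched a searched motif. The motifs were the core of the C/EBP-ATF response element, TGATGNAA (TTNCATCA on the other strand), and the cAMP response element, TGACGTCA, on both strands. They do not overlap each other in any of the windows. The Atf4 window is chr7:113684431-113684730 (+), that of Chac1 is chr3:126795881-126796180 (+), and that of Ppp1r15a is chr1:105139547-105139846 (-).
Atf4: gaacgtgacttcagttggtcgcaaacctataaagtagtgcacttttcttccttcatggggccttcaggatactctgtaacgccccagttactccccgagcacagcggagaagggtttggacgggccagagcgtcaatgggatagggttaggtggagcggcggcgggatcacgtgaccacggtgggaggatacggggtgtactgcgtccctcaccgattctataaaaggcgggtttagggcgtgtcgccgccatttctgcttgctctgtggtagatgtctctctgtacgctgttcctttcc
Chac1: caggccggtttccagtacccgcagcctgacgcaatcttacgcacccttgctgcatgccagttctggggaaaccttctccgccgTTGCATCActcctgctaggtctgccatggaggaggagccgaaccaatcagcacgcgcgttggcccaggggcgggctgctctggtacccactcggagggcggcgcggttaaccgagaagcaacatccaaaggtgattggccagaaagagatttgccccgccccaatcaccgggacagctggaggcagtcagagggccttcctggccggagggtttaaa
Ppp1r15a: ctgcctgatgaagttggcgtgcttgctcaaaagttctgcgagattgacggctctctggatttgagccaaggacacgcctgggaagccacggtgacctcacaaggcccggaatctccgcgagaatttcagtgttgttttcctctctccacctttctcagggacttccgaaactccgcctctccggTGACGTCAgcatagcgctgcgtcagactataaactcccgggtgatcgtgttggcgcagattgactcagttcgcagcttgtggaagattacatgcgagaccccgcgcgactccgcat
The Chac1 window held the C/EBP-ATF core as TTGCATCA, 167 bases before the start. The Ppp1r15a window held the cAMP response element 66 bases before the start. The Atf4 window held neither. RefSeq windows were given for 9 of the 10 genes, all but Atf3. Of these 9, 2 held the C/EBP-ATF core, Chac1 and Trib3 (TTACATCA, 21 bases before the start), against 3.98% of all 33469 promoter windows. The cAMP response element was found in 1 of the 9 windows and in 1.83% of all windows. A match of letters is a description and not evidence of binding.

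The share of probes above background was 56.6% to 59.3% in control livers, 63.6% to 69.5% in TBI livers and 58.7% to 60.5% in HSC + TBI livers, and the part of this difference in the results was not tested. The 3 control arrays lay on slide 1, the 3 TBI arrays on slide 2, HSC + TBI rats 1 and 3 on slide 3 and HSC + TBI rat 2 on slide 4, so slide and group cannot be told apart. All 10 hepatocyte markers were above background on all 9 arrays, and none of them was called in any comparison by limma. Signals below are log2 intensities after quantile normalization. A gene was called when limma gave an adjusted p under 0.05 over all 25369 tested probes together with a change of at least 1.5-fold. Probe signals of different genes are not compared, because each probe has its own brightness. In whole liver, fewer cells of a type and less RNA per cell cannot be told apart.

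**Figure D1:**
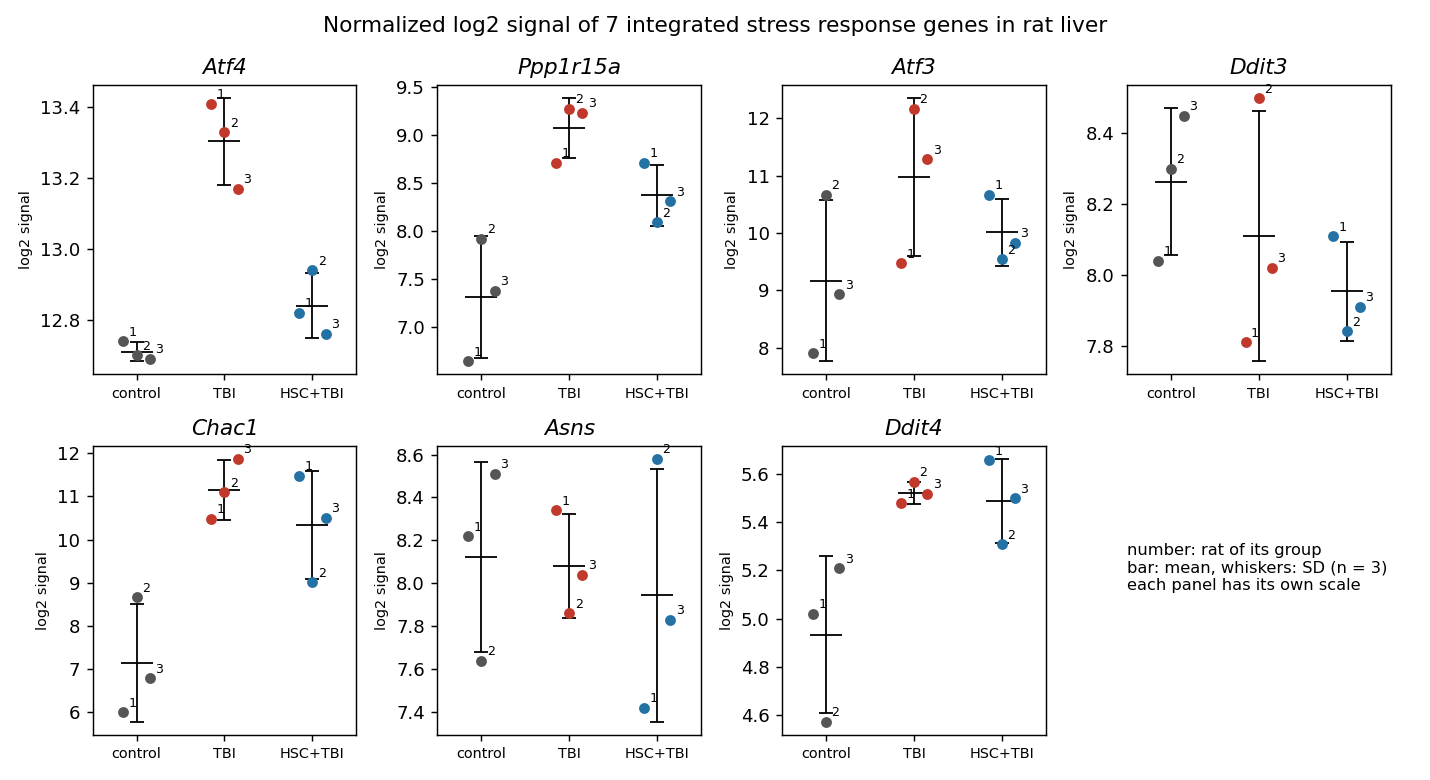
Normalized log2 signal (vertical axis, own scale in each panel) of the 7 genes past the filter in the 3 control, 3 TBI and 3 HSC + TBI rats (horizontal axis), with the rat's number beside each point and bars for the mean and SD (n = 3). For Atf4, Ppp1r15a, Chac1 and Ddit4 every TBI rat lies above every control rat, and the control values of Chac1 and Atf3 span 2.66 and 2.77 log2 units.

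After TBI alone, 3 of the 7 genes past the filter were called, all of them higher than in the controls: Chac1 by 16-fold, Ppp1r15a by 3.37-fold and Atf4 by 1.51-fold. Of all tested probes 7.25% were called in this comparison and 3.54% were called higher. The rats of the TBI and control groups did not overlap for 4 of the 7 genes, each higher after TBI, against 13.3% of all tested probes. Since the genes were chosen from this comparison, nothing is read from these counts. The median log2 difference over the 7 genes was 0.59, and over all tested probes it was -0.01.

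Atf4, the transcription factor at the centre of the response, read 12.74, 12.7 and 12.69 in the 3 control rats, 13.41, 13.33 and 13.17 in the 3 TBI rats, and 12.82, 12.94 and 12.76 in the 3 HSC + TBI rats. The controls lay within 0.05 log2 units of each other, and all TBI rats were above all other rats. The log2 difference between TBI and control was 0.59 (95% interval 0.34 to 0.84, adjusted p = 0.0165), which at 1.51-fold was just inside the fold threshold. It no longer passed when control rat 2, control rat 3 or TBI rat 2 was left out (adjusted p of 0.054, 0.0577 and 0.0498, each with a log2 difference of 0.58) or when TBI rat 1 was, which gave a log2 difference of 0.54. The call was also lost when only the TBI and control arrays were fitted (adjusted p = 0.0533) and under normexp background correction, where the log2 difference was 0.58.

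Atf3, a stress-inducible transcription factor of the same family, read 7.9, 10.67 and 8.93 in the controls and 9.47, 12.17 and 11.29 after TBI. Control rat 2 read above TBI rat 1, so the groups overlapped. The log2 difference of 1.82 was large but its 95% interval, -0.04 to 3.67, included 0 (adjusted p = 0.205). It was 1.18 without control rat 1, 1.22 without TBI rat 2 and 2.57 without control rat 2. In the HSC + TBI rats Atf3 read 10.67, 9.54 and 9.83, inside the range of the TBI rats. Ddit3, which encodes CHOP, the transcription factor tied to cell death under lasting stress, read 8.04, 8.3 and 8.45 in the controls, 7.81, 8.5 and 8.02 after TBI, and 8.11, 7.84 and 7.91 after HSC + TBI. Its 3 groups overlapped, and the log2 difference between TBI and control was -0.16 (95% interval -0.6 to 0.29, adjusted p = 0.655).

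Ppp1r15a encodes GADD34, the phosphatase subunit that removes the phosphate from eIF2 and so ends the response. It read 6.65, 7.92 and 7.38 in the controls, 8.71, 9.27 and 9.23 after TBI, and 8.71, 8.09 and 8.31 after HSC + TBI. All 6 irradiated rats were above all 3 controls. The log2 difference between TBI and control was 1.75 (95% interval 1.03 to 2.48, adjusted p = 0.015). Leaving out control rat 3 raised the adjusted p to 0.0512 with a log2 difference of 1.79, and leaving out any other rat kept the call. Over these fits the log2 difference ranged from 1.42 to 2.05, and under normexp background correction it was 1.22, still called (adjusted p = 0.0088).

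Chac1, an enzyme that degrades glutathione, had the largest difference of the 7 genes. It read 6, 8.66 and 6.79 in the controls, 10.48, 11.1 and 11.87 after TBI, and 11.48, 9.01 and 10.51 after HSC + TBI. On this probe every irradiated rat was above every control, with control rat 2 the closest to them. The log2 difference between TBI and control was 4 (95% interval 2.22 to 5.79, adjusted p = 0.0194). Leaving out control rat 1, control rat 3 or TBI rat 2 ended the call, with adjusted p of 0.0574, 0.0743 and 0.0544 and log2 differences of 3.43, 3.82 and 4.03. Without control rat 2 the log2 difference was 4.76, and under normexp background correction it was 2.91, still called (adjusted p = 0.0199). A second, dimmer Chac1 probe read 1.31, 4.56 and 1.29 in the controls, where it was above background only in rat 2, and 5.8, 6.28 and 7.09 after TBI. This probe was called, with a log2 difference of 4 (adjusted p = 0.0405), of which the control side rests on 1 measured rat. It passed the filter only through the irradiated groups, where it was high, so its call adds no support to that of the first probe. After HSC + TBI this probe read 7.01, 4.32 and 6.32, with rat 2 below control rat 2, and it was not called (log2 difference 3.5, adjusted p = 0.0926).

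Ddit4, which encodes the mTORC1 inhibitor REDD1, read 5.02, 4.57 and 5.21 in the controls, 5.48, 5.57 and 5.52 after TBI, and 5.66, 5.31 and 5.5 after HSC + TBI. Both irradiated groups were above the controls without overlap. The log2 difference between TBI and control was 0.59 (95% interval 0.19 to 0.98, adjusted p = 0.0757) and was not called. Asns, asparagine synthetase, a target that ATF4 drives under amino acid shortage, read 8.22, 7.64 and 8.51 in the controls, 8.34, 7.86 and 8.04 after TBI, and 7.42, 8.58 and 7.83 after HSC + TBI. Its log2 difference between TBI and control was -0.04 (95% interval -0.77 to 0.69, adjusted p = 0.95), and the 3 groups overlapped throughout. Psat1, an enzyme of serine synthesis, was not well above background on any of the 9 arrays and was not tested.

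**Figure D2:**
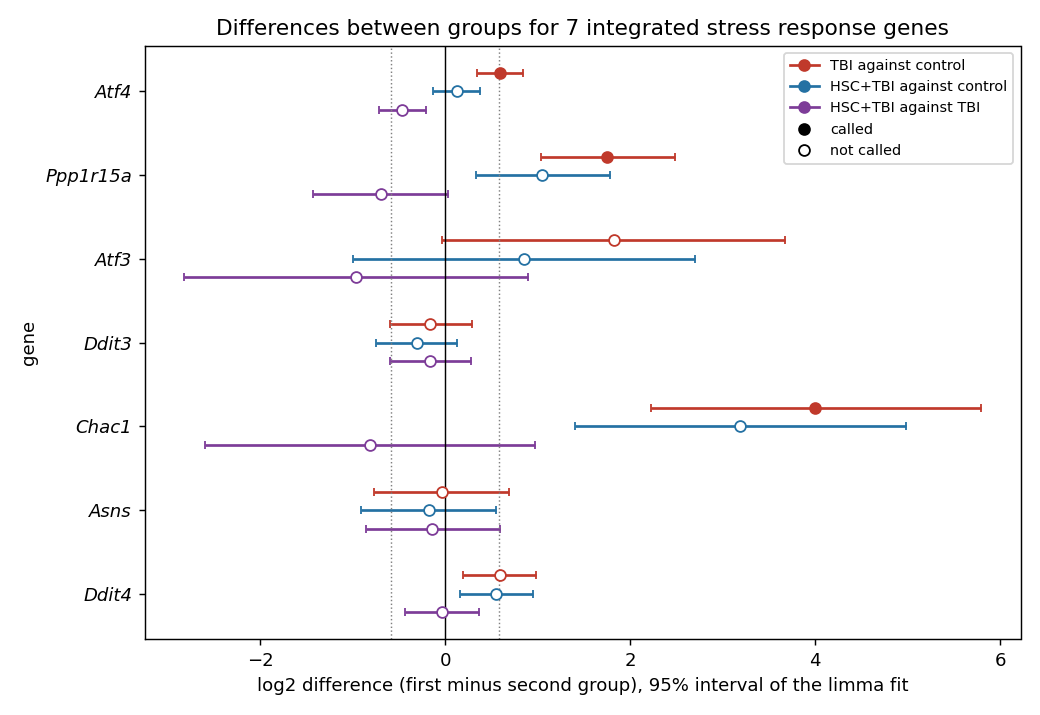
Log2 difference between groups (horizontal axis, first minus second group) of the 7 genes (vertical axis) with the 95% interval of the limma fit, filled where called and open where not; dotted lines mark a 1.5-fold change. The 3 filled points, Atf4, Ppp1r15a and Chac1, all belong to TBI against control, and all 7 points of HSC + TBI against TBI lie below 0. The genes were chosen with the TBI signals of Atf4 and Chac1 known, so nothing is read from this direction.

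With HSC given before the exposure, 0 of the 7 genes were called against control by limma, where 3.23% of all tested probes were called, 1.19% higher and 2.05% lower. At an unadjusted p under 0.05 there were 3 of the 7 (Chac1, Ppp1r15a and Ddit4), against 19.6% of all probes, and the methods' t-test, the plain test that the study names, called 1, Chac1, against 6.65%. The HSC + TBI rats lay above the controls without overlap for 4 of the 7 genes, Atf4, Chac1, Ppp1r15a and Ddit4, against 18% of all probes. The median log2 difference over the 7 genes was 0.55 and over all tested probes 0.05. The median over the genes was 0.2 under normexp background correction, 0.34 with no filter on dim probes, 0.22 without control rat 1 and 0.37 without control rat 2. Both comparisons with control use the same 3 control rats.

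Chac1 was 9.13-fold higher in the HSC + TBI rats than in the controls, a log2 difference of 3.19 (95% interval 1.4 to 4.98, adjusted p = 0.068). Without control rat 2, the highest control, it was called with a log2 difference of 3.95 and an adjusted p of 0.0456. Under normexp background correction the log2 difference was 2.23 for Chac1 (adjusted p = 0.0661) and 0.7 for Ppp1r15a (adjusted p = 0.0818). Ppp1r15a differed by 1.05 (95% interval 0.33 to 1.78, adjusted p = 0.117) and Ddit4 by 0.55 (95% interval 0.16 to 0.95, adjusted p = 0.127), both on the log2 scale. Atf4 differed by 0.13 on the same scale (95% interval -0.13 to 0.38, adjusted p = 0.581), although its lowest HSC + TBI rat was above its highest control. The log2 differences of Atf3, Asns and Ddit3 were 0.85, -0.18 and -0.31, with adjusted p of 0.618, 0.809 and 0.419 and overlapping groups. That of Atf3 ran from 0.22 without control rat 1 to 1.6 without control rat 2.

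The HSC + TBI rats were also compared directly with the TBI rats, which had the same exposure. Without a group given HSC alone, this comparison cannot tell a changed response to the exposure from an effect of HSC itself. The arrays of the compared groups also lay on different slides. Here 0 of the 7 genes were called by limma, where 0.796% of all tested probes were called. At an unadjusted p under 0.05 there was 1, Atf4, against 16.3% of all probes, and the methods' t-test called 0, against 3.67%. All 7 log2 differences were below 0, with a median of -0.47 against 0.06 over all tested probes. Of all tested probes 58.7% were above 0. As the genes were chosen with the TBI signals of Atf4 and Chac1 already known, nothing is read from this direction. For 2 of the 7 genes, Atf4 and Ppp1r15a, every HSC + TBI rat was below every TBI rat, against 8.74% of all probes. For Ppp1r15a the gap was narrow, and rat 1 of each group read 8.71 when rounded.

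Atf4 was lower in the HSC + TBI rats by a log2 difference of -0.47 (95% interval -0.72 to -0.21, adjusted p = 0.104), which is 1.38-fold. Its interval excludes 0, but the difference passed neither the adjusted threshold nor the 1.5-fold limit. Ppp1r15a differed by -0.7 (95% interval -1.43 to 0.03, adjusted p = 0.327). Chac1 differed by -0.81, with a wide 95% interval of -2.6 to 0.97 (adjusted p = 0.645), and ran from -1.39 without HSC + TBI rat 1 to -0.15 without HSC + TBI rat 2. The log2 differences of the other genes were -0.97 for Atf3, -0.16 for Ddit3, -0.14 for Asns and -0.03 for Ddit4, with adjusted p from 0.593 to 0.94, and that of Atf3 ran from -1.72 without TBI rat 1 to -0.37 without TBI rat 2. Their intervals were -2.82 to 0.89, -0.6 to 0.28, -0.86 to 0.59 and -0.43 to 0.36, so a change of 1.5-fold lies inside the intervals of Atf3, Ddit3 and Asns and outside that of Ddit4.

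The markers of Kupffer cells and macrophages moved with this comparison. All 8 of them were above background on all 9 arrays, and their summed signal on the linear scale was 65300 to 70700 in the HSC + TBI rats, 93300 to 174000 in the TBI rats and 89100 to 139000 in the controls, with 0 of the 8 called by limma. Of 8 lymphocyte markers, 7 had a probe, 5 passed the filter and only 2 were above background on all 9 arrays. Cd3e was above background on no array. Called lower were 3 after TBI (Cd3g, Cd2 and Cd79b) and 2 after HSC + TBI (Cd3g and Cd79b), where 7.25% and 3.23% of all tested probes were called. The summed signal of the lymphocyte markers was 738 to 1000 in the controls, 381 to 573 after TBI and 334 to 411 after HSC + TBI. Of 6 endothelial markers, 5 had a probe, all above background on all arrays, and their summed signal also moved, from 12600 to 15500 in the controls to 16600 to 20500 after TBI and 15400 to 17100 after HSC + TBI, with 0 called by limma. The 6 stellate cell markers, all above background on all arrays, summed to 12200 to 14500, 9190 to 17800 and 11000 to 11800 in the same order, and 1 of them, Lrat, was called lower after TBI. Of 6 neutrophil markers, 5 had a probe and 2 passed the filter, and of 5 cholangiocyte markers, 3 had a probe and 2 passed. The summed signals, which include the probes below the filter, were 259 to 612, 366 to 769 and 219 to 294 for neutrophil markers. Those of cholangiocyte markers were 390 to 520, 351 to 657 and 432 to 481, and 0 markers of either list were called. The part of these cells in the signals of the stress genes was not tested.

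The rats of 1 group differed from each other in a shared way for some of the genes. Control rat 2 was the highest control for Chac1, Atf3 and Ppp1r15a, and control rat 1 was the lowest for the same 3 genes. HSC + TBI rat 1 was the highest and rat 2 the lowest of its group for Chac1, Atf3, Ppp1r15a, Ddit3 and Ddit4, and rat 2 was the rat alone on its slide. Over the 9 rats, deviations from the group means had a Pearson r of 0.92 between Atf3 and Ppp1r15a, 0.9 between Chac1 and Ppp1r15a, and 0.78 between Chac1 and Atf3. Atf4 did not share this order, with an r of -0.45 to Atf3, -0.49 to Ppp1r15a and -0.64 to Chac1, and Asns ran against Chac1 with an r of -0.86. These correlations describe 9 rats whose arrays share slides by group.

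**Figure D3:**
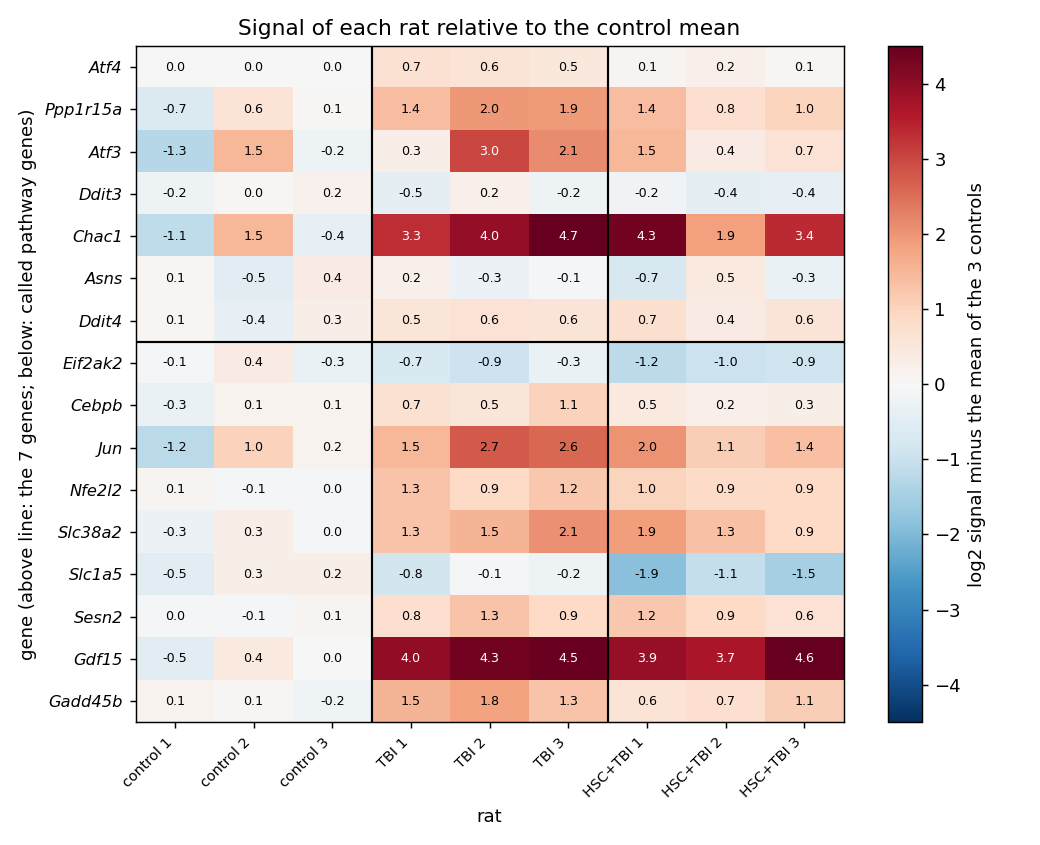
Log2 signal of each rat (columns) minus the mean of the 3 controls, for the 7 genes (above the line) and the 9 other pathway genes called in any comparison (below the line). Chac1 and Gdf15 are the brightest red rows after irradiation, and control rat 2 is above the control mean for Atf3, Chac1, Jun and Ppp1r15a.

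The wider pathway was described through 90 further genes grouped by role, of which 82 had a probe and 74 passed the filter. After TBI 7 of the 74 were called, all higher, and after HSC + TBI 7 were called against control, 5 higher and 2 lower. Both counts are 9.46% of the 74, beside 7.25% and 3.23% of all tested probes. The medians over the 74 genes were 0.07 and 0.08 on the log2 scale, close to those of all probes.

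Among the 4 kinases of eIF2, no probe was matched to Eif2ak4, the sensor of amino acid shortage. Eif2ak3, the kinase of the endoplasmic reticulum, differed from control by -0.17 after TBI and 0.1 after HSC + TBI, and Eif2ak1, the kinase of heme shortage, by -0.27 and -0.22, all log2 differences and none called. Eif2ak2, the kinase of double-stranded RNA, read 9.62, 10.06 and 9.37 in the controls, 9, 8.74 and 9.39 after TBI, and 8.52, 8.73 and 8.77 after HSC + TBI. It was called lower after HSC + TBI, with a log2 difference of -1.01 (adjusted p = 0.0445), while the difference after TBI, -0.64, was not called (adjusted p = 0.109). A second Eif2ak2 probe was called lower after HSC + TBI as well, with a log2 difference of -0.92 (adjusted p = 0.0337). The remaining genes of eIF2 and its exchange factor were not called: limma called 0 of the 15 genes of this list after TBI, with 4 at an unadjusted p under 0.05 and 0 by the methods' t-test, and 1, Eif2ak2, after HSC + TBI. Over all tested probes the shares after TBI were 7.25%, 25.5% at the unadjusted p and 8.36% by the methods' t-test. After Eif2ak2, the largest TBI difference of this list was that of Impact, 0.38 on the log2 scale and not called (adjusted p = 0.302). Its further probes, with -0.67 and 0.09, were not called either.

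Of 14 ATF, CREB, AP-1 and C/EBP transcription factors and partner factors past the filter, 3 rose after TBI, where 7.25% of all tested probes were called and 3.54% called higher. Jun, the AP-1 factor that pairs with ATF proteins, read 9.88, 12.13 and 11.25 in the controls and 12.59, 13.83 and 13.66 after TBI, with a log2 difference of 2.28 (adjusted p = 0.0435). Its control rats were spread in the same order as those of Chac1 and Atf3. Nfe2l2, which encodes the oxidative stress factor NRF2, rose by 1.12 after TBI (adjusted p = 0.00309) and by 0.91 after HSC + TBI (adjusted p = 0.0104) on the log2 scale. Cebpb, a factor that pairs with ATF4 and CHOP, rose by 0.76 after TBI (adjusted p = 0.0356). Cebpb and Jun were not called after HSC + TBI, where their log2 differences were 0.31 and 1.51 with adjusted p of 0.376 and 0.186. For Jund the brighter probe, with a log2 difference of 0.56 after TBI, was not called (adjusted p = 0.0573), and a dimmer probe was, with 1.2 (adjusted p = 0.0201).

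The genes of amino acid supply are a main branch of what ATF4 drives. Limma called 7.25% of all tested probes after TBI and 3.23% after HSC + TBI, so a lack of calls in lists this short is not read as a result. Limma called 0 of 12 genes of amino acid and one-carbon synthesis in either irradiated group against control, with 5 after TBI and 2 after HSC + TBI at an unadjusted p under 0.05 and 0 by the methods' t-test. Over all tested probes 25.5% and 19.6% passed the unadjusted p in the same comparisons, and the methods' t-test called 8.36% and 6.65%. The members with the largest TBI differences were Mthfd2, a mitochondrial folate enzyme, and Phgdh, the first enzyme of serine synthesis. Mthfd2 differed by -1.66 (adjusted p = 0.158), where control rat 1 at 7.16 stood far above the other 8 rats at 3.06 to 4.51. Of its further probes, 1 was called lower after TBI, with -1.08 (adjusted p = 0.043). That probe was above background on 3 control, 2 TBI and 1 HSC + TBI arrays. It passed the filter only through the controls, where it was high, so nothing is read from its call. The other further probe was not well above background on any control array. Phgdh differed by -1.56 (adjusted p = 0.0941), with the 3 TBI rats at 8.64, 8.09 and 9.14 below the controls at 10.85, 9.18 and 10.53. Of 11 aminoacyl-tRNA synthetases, which load amino acids onto tRNA, limma called 0 in each comparison, with 1, 2 and 1 at an unadjusted p under 0.05, against 25.5%, 19.6% and 16.3% of all tested probes, and 0 by the methods' t-test. Their largest TBI differences were -0.34 for Sars1 and 0.27 for Eprs1, with adjusted p of 0.194 and 0.261. For Iars1 a dimmer second probe was called higher after HSC + TBI, with a log2 difference of 0.72 (adjusted p = 0.0475).

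Among the amino acid transporters 5 of 9 with a probe passed the filter. Slc38a2, the SNAT2 transporter of neutral amino acids, read 9.78, 10.36 and 10.01 in the controls, 11.33, 11.58 and 12.12 after TBI, and 11.93, 11.38 and 10.95 after HSC + TBI. It rose by 1.63 after TBI (adjusted p = 0.0142) and by 1.37 after HSC + TBI (adjusted p = 0.0422) on the log2 scale, and a second probe was called in both comparisons. Slc1a5, the ASCT2 glutamine transporter, read 6.79, 7.57 and 7.55 in the controls and 5.42, 6.23 and 5.8 after HSC + TBI, and was called lower by -1.48 (adjusted p = 0.0356). Slc6a9, a glycine transporter, differed by -0.92 after TBI without a call (adjusted p = 0.0663).

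Of 17 other reported targets of ATF4 or CHOP past the filter, 3 were called higher in both irradiated groups. Over all tested probes 3.54% were called higher after TBI and 1.19% after HSC + TBI. Of the 17 genes, 8 differed from control below 0 after TBI and 9 after HSC + TBI. Their median log2 differences were 0.09 and -0.01. Gdf15, a stress hormone that acts on appetite, read 5.7, 6.6 and 6.19 in the controls, 10.15, 10.51 and 10.62 after TBI, and 10.07, 9.84 and 10.73 after HSC + TBI. It was 19.2-fold higher after TBI (adjusted p = 0.000209) and 16.5-fold higher after HSC + TBI (adjusted p = 0.000297), and all irradiated rats stood far above the controls. Gadd45b, a stress signalling protein, rose by 1.54 after TBI (adjusted p = 0.0027) and by 0.82 after HSC + TBI (adjusted p = 0.0488), and Sesn2, an inhibitor of mTORC1, by 0.98 (adjusted p = 0.0168) and 0.91 (adjusted p = 0.0367), all on the log2 scale. Gdf15 and Sesn2 are also known targets of p53. Herpud1 and Eif4ebp1 passed the adjusted threshold after TBI with log2 differences of -0.53 and -0.56, both under 1.5-fold.

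**Figure D4:**
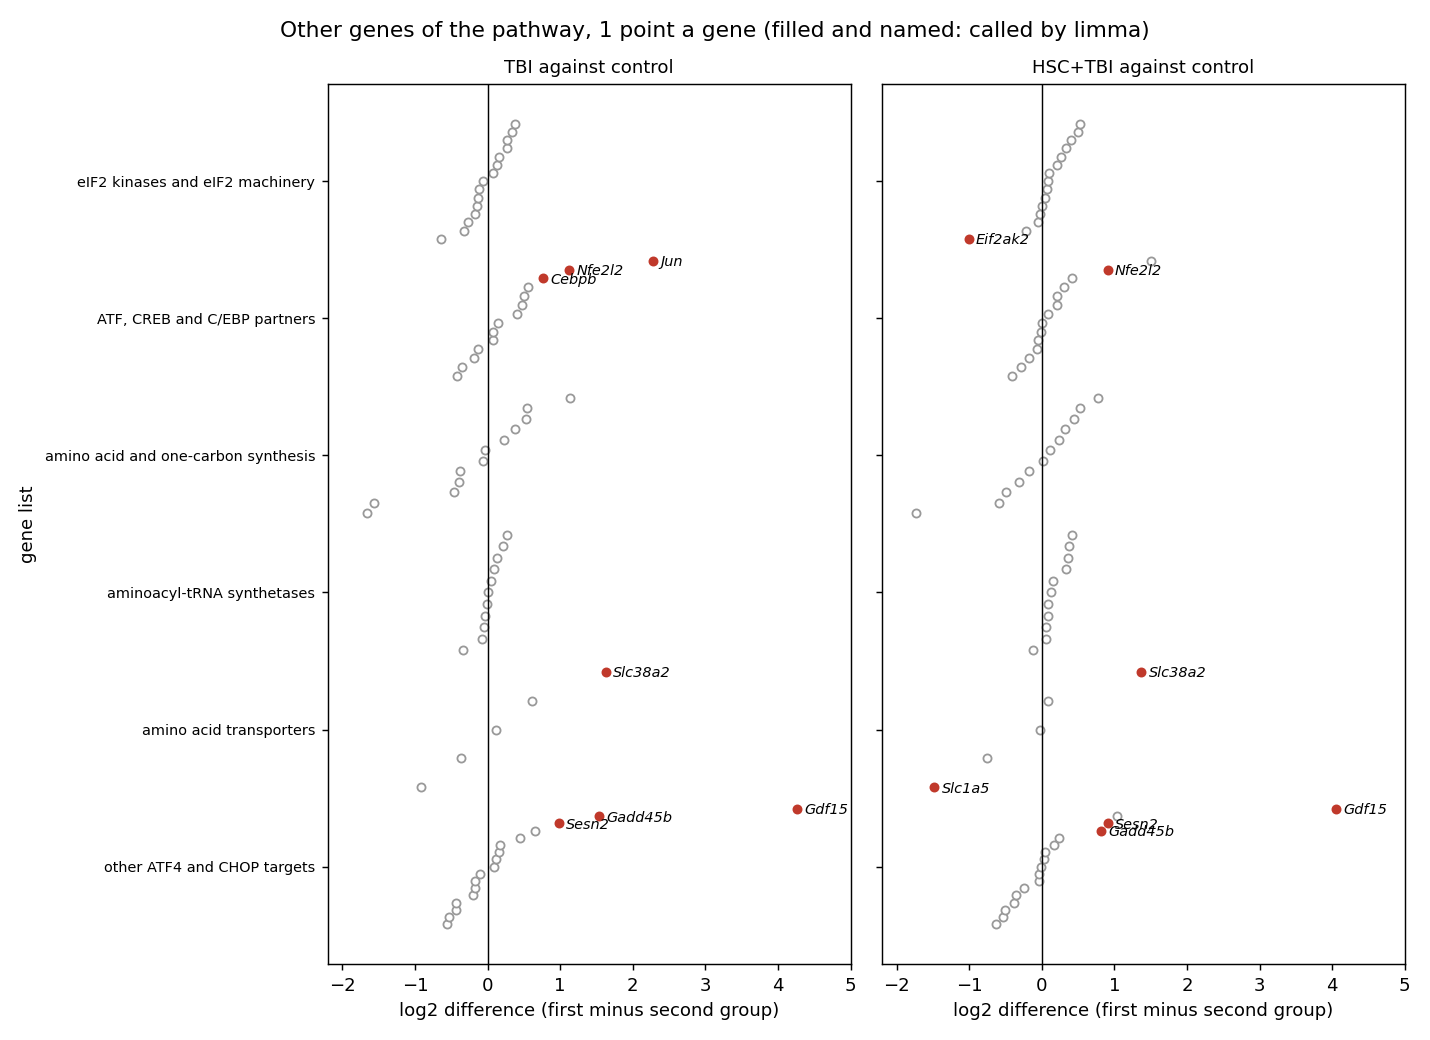
Log2 difference from control (horizontal axis) of the 74 other pathway genes past the filter after TBI (left) and after HSC + TBI (right), 1 point a gene, grouped by role (vertical axis) and filled and named where called. Most points lie near 0, and Gdf15 stands at 4.26 and 4.05.

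Between HSC + TBI and TBI, 0 of the 74 genes were called by limma, with 12 at an unadjusted p under 0.05 and 2, Slc1a5 and Gadd45b, by the methods' t-test. The shares over all tested probes were 0.796%, 16.3% and 3.67%. The log2 differences of Slc1a5 and Gadd45b were -1.12 (95% interval -1.8 to -0.43, adjusted p = 0.133) and -0.73 (95% interval -1.14 to -0.32, adjusted p = 0.114), and neither gene's rats overlapped between the groups. Herpud1 went the other way without overlap, with 0.49 (95% interval 0.27 to 0.72, adjusted p = 0.0718), and its second probe had 0.51 (adjusted p = 0.111). In all, the groups did not overlap for 14 of the 74 genes, 7 higher and 7 lower, where 8.74% of all tested probes were lower without overlap. For Gdf15 the difference was -0.22 (95% interval -0.87 to 0.44), for Nfe2l2 -0.21 (-0.52 to 0.1), for Slc38a2 -0.26 (-0.92 to 0.41) and for Sesn2 -0.07 (-0.49 to 0.35).

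The calls of the pathway genes did not rest equally on all rats. Calls over all tested probes also varied with the rat left out, from 888 to 2392 after TBI and from 317 to 1028 after HSC + TBI. In the 9 fits that each left out 1 rat, Gdf15 was called in all 9 in both comparisons, and Nfe2l2 and Gadd45b in all 9 after TBI. Slc38a2 was lost after TBI only without control rat 3, and Sesn2 without control rat 1 or 2. Jun was called in 2 of the 9 fits, those without control rat 2 or TBI rat 1, and Cebpb in 1, that without TBI rat 2. After HSC + TBI, Nfe2l2 was called in 7 of the 9 fits, Slc1a5 and Sesn2 in 4, Slc38a2 in 3, Eif2ak2 in 2 and Gadd45b in 1.

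The chaperones of the endoplasmic reticulum, which the neighbouring branches of the unfolded protein response control, were set beside the pathway. Of 13 with a probe, all past the filter, limma called 0 in each of the 3 comparisons, with 2 after TBI, 3 after HSC + TBI and 1 between the irradiated groups at an unadjusted p under 0.05, against 25.5%, 19.6% and 16.3% of all tested probes, and 0 by the methods' t-test. Hsp90b1 was the largest after TBI, with a log2 difference of 0.52 under the 1.5-fold limit (adjusted p = 0.0235), and its second probe had -0.1 (adjusted p = 0.794). Dnajb11 differed by 0.36 after TBI (adjusted p = 0.0921) and by 0.58 after HSC + TBI (adjusted p = 0.0343), again under 1.5-fold.

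To find the genes with the most similar course, the log2 signals of the 7 genes were standardized and averaged in each rat. This mean was -0.95, -0.53 and -0.27 in the controls, 0.32, 0.96 and 0.6 after TBI, and 0.12, -0.09 and -0.16 after HSC + TBI. Each HSC + TBI rat thus lay between the controls and the TBI rats. Since the genes were chosen with the TBI signals of Atf4 and Chac1 known, nothing is read from the order of the groups in this mean. Among 8528 other named genes above background on all arrays, the 5 with the highest Pearson r to this mean over the 9 rats were Jund (0.97), Ppp1r10 (0.96), Hist1h2bg (0.95), Src (0.95) and Fgd6 (0.94). Ppp1r10, a nuclear regulator of protein phosphatase 1, read 9.66, 10.23 and 10.16 in the controls, 10.95, 11.32 and 11.23 after TBI, and 10.93, 10.74 and 10.32 after HSC + TBI. The r is a description over rats that share group and slide, and it includes the differences between the groups.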

How the data were processed

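Liver RNA of 9 rats was measured, 1 array each, in the 3 groups that the sample labels give. Per the file headers, the authors read spot intensity with Agilent Feature Extraction 10.7.3.1, which corrected the background and flagged spots. The authors deposited log2 values normalized by quantiles, which served as an alternative here. For the main values, control and outlier-flagged spots were left out (84 to 115 of 43379 spots an array were outliers, and none was saturated). The processed signal was floored at 1, put on the log2 scale, quantile-normalized and averaged per probe (limma 3.58.1, R 4.3.3). A probe counted as above background when over 0.5 of its spots were flagged so. Probes that were so on every array of at least 1 group were tested, 25369 in all, and they cover 9604 named genes, with names taken by RefSeq accession from the genes of GRCr8.

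Groups were compared in 1 fit of the 3 group means (lmFit and eBayes) with Benjamini-Hochberg adjustment over all tested probes. A gene was represented by its brightest probe past the filter. No array gives more than 1 rat, nothing says that the rats came from separate cages or days, and with 3 against 3 an exact two-sided permutation p cannot go below 0.1. The number of arrays limits the precision. The fits were tested on simulated data. The study's methods name a plain t-test at 1.5-fold, which was run with unequal variances as an alternative.

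The genes, lists, tests and alternatives were chosen with earlier results of these data known. Named are the 10 genes, the 4 eIF2 kinases, all called genes of the lists, the 2 genes of each list with the largest TBI difference, and the 5 genes with the most similar course. Other genes are named with the count or the second probe they belong to, after their values were seen. Alternatives were the authors' values, scaling by each array's 75th percentile, normexp (offset 50), no filter on dim probes, a filter that asks for signal on all 9 arrays, outlier spots left in, a fit of the compared groups alone, the t-test, no minimum fold, the replicate number or slide as a block, the mean of a gene's probes, and each rat left out. Promoter windows came from RefSeq on GRCr8 (250 bases before to 50 after each start). No probe sequence was used here. The result for 1 cell type marker is not reported here.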

Additional observations from a re-analysis of the deposited data

Results flagged for a closer look

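In 2 amino acid and autophagy genes of the pathway list, the TBI rats and the HSC + TBI rats lay on opposite sides of the control mean. Slc3a2, the heavy chain of several amino acid transporters, read 10.25, 10.16 and 10.35 after TBI and 10.09, 10.11 and 10.12 after HSC + TBI, a log2 difference of -0.15 between HSC + TBI and TBI that limma did not call (adjusted p = 0.514). Wipi1, an autophagy protein, read 5.84, 5.97 and 5.89 after TBI and 6.07, 6.24 and 6.23 after HSC + TBI, a log2 difference of 0.28 that limma did not call either (adjusted p = 0.289). The controls read 10.22, 10.07 and 10.1 for Slc3a2 and 5.91, 6.18 and 5.95 for Wipi1, so in both genes they overlapped the TBI rats.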

How the results depend on the processing

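Of the 7 stress genes, Atf4, Chac1 and Ppp1r15a were called after TBI under most of 13 other settings, and none of the 7 genes changed direction under these settings in any comparison. The methods' t-test with adjusted p called 0 of the 7 after TBI and 0 of the 74 other pathway genes after TBI and after HSC + TBI. Of all 25369 tested probes it called only 7 after TBI and 2 after HSC + TBI, so nothing is read from these counts. With unadjusted p it called 1 of the 7 after HSC + TBI, against 6.65% of all probes. It called 2 of the 74 between HSC + TBI and TBI, against 3.67%. With the slide as a random block (estimated correlation -0.33) 5 of the 7 were called after TBI and 2 after HSC + TBI, and 14, 12 and 5 of the 74 in the 3 comparisons. Calls over all tested probes went from 1839, 820 and 202 to 4528, 2573 and 2256. All control arrays lay on slide 1 and all TBI arrays on slide 2. The correlation could therefore come only from slides 3 and 4, with HSC + TBI rat 2 alone on slide 4. Nothing is read from the added calls. The replicate number, whose rats did not deviate together (correlations of -0.14 to 0.19), does not pair the rats. With it as a replicate block, 3 of the 7 stayed called after TBI, and of the 74 other genes 3 were called after HSC + TBI and 1 between the irradiated groups. Without the filter on dim probes 3 of the 74 were called after HSC + TBI, and the 75th percentile shift called 1, Herpud1, between HSC + TBI and TBI. That shift lowered the share of higher calls among all probes between HSC + TBI and TBI from 29.2% to 13.7%.

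With each rat left out in turn, 0 to 3 of the 7 genes were called after TBI (0 without control rat 3, 1 without TBI rat 2), 0 to 1 after HSC + TBI (1 without control rat 2) and 0 between the irradiated groups. Of the 74 other genes, 4 to 9 were called after TBI, 1 to 7 after HSC + TBI and 0 to 2 between the irradiated groups. Calls over all tested probes changed as well. After TBI they ran from 888 without control rat 3 to 2392 without TBI rat 3, and numbered 1242 without TBI rat 2. After HSC + TBI they ran from 317 without HSC + TBI rat 1 to 1028 without TBI rat 1. Between the irradiated groups they ran from 28 without TBI rat 2 to 948 without TBI rat 1. Asns ranged from -0.28 to 0.15 after TBI, from -0.5 to 0.08 after HSC + TBI and from -0.46 to 0.13 between them, and between them Ddit3 ranged from -0.31 to 0.04 and Ddit4 from -0.12 to 0.06, all uncalled log2 differences. The cause of these changes was not tested.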
